A study of Mus musculus with 8 samples.

Results

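Regional transcription factor genes of the embryo, 10 in all, were followed in mouse embryonic fibroblasts (MEFs), namely *Tbx2*, *Tbx3*, *Tbx4*, *Tbx5*, *Tbx15*, *Tbx18*, *Tbx20*, *Pitx1*, *Emx2* and *Shox2*. They were chosen by name, as genes that mark where in the embryo a mesenchymal cell comes from, and make up 10 of the 46078 genes counted. RNA-seq reads that cover a strain difference were counted per allele in 8 samples, 2 for each of 4 groups, and the 2 samples of each group had been pooled into 1 column per allele. Each group is therefore 1 pool here, and all errors below are counting errors with no replicate check. All cells were female MEFs labelled as the cross 129S1/SvImJ x CAST/EiJ, while the study names 129Sv4/Jae as the source of the inactive X, and were kept as lines that the authors received from another laboratory, and no label gives the embryo stage or the part of the embryo they were grown from. WT cells carry the 129 X chromosome as the inactive X and the CAST X chromosome as the active X. XiΔXist cells lack *Xist* on the inactive X. The groups XiΔXist shSCR and XiΔXist shYY1, called shSCR and shYY1 below, are XiΔXist cells that were transduced with lentivirus and selected with puromycin, with a scramble hairpin in shSCR and with 2 different hairpins, pooled here, against YY1, a zinc finger factor that binds promoters and enhancers, in shYY1. WT and XiΔXist cells were neither transduced nor selected, and their libraries were sequenced with shorter reads than those of the hairpin groups. The hairpin, the selection, the read length and the depth change together between XiΔXist and shSCR and cannot be told apart. WT and XiΔXist are separate lines, so that the line and the genotype cannot be told apart either.

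T-box proteins bind DNA through a shared domain and switch whole programmes of tissue identity. In the flank of the embryo *Tbx5* starts the forelimb, while *Tbx4* and the homeobox gene *Pitx1* mark the hindlimb. *Tbx2* and *Tbx3* are repressors expressed at the margins of the limb bud, and *Shox2*, another homeobox gene, is needed for the upper segment of the limb. *Tbx15* and *Tbx18* act in the mesenchyme of the trunk wall, its dermis and the shoulder girdle, *Emx2* is needed for the scapula and the urogenital system, and *Tbx20* is known from the heart. Fibroblasts grown in a dish often keep such regional factors from the place they were taken from.

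The sequences just upstream of *Tbx18* and *Shox2* are shown because these genes were read from both alleles in every pool and 1 of them holds a word bound by YY1, the target of the hairpins. RefSeq (GRCm38.p6) gave an upstream sequence for 5 of the 10 genes (*Emx2*, *Shox2*, *Tbx4*, *Tbx18* and *Tbx20*). The 250 bases before the start of *Tbx18* lie at chr9:87731261-87731510 and those of *Shox2* at chr3:66981772-66982021, and both are printed 5′ to 3′ on the minus strand of the genome. Capitals mark the YY1 word ATGGCGG in *Tbx18* and the TATA word TATAAA in *Shox2*.
Tbx18: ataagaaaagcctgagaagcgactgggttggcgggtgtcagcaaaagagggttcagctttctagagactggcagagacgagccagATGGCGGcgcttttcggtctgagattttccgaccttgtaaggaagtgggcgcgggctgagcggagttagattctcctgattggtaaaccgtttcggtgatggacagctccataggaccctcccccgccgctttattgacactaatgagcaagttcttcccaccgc
Shox2: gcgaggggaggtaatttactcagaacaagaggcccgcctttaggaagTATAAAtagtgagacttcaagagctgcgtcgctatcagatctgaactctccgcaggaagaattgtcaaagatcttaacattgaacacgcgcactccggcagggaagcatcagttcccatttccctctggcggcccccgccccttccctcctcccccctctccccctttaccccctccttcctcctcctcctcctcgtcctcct
The YY1 word lies 165 bases before the start of *Tbx18*, and it was found on either strand in 2.21% of 32851 promoters of this length. Among the 5 genes it was found in *Tbx18* alone. The TATA word lies 203 bases before the start of *Shox2*, and a further match was found 85 bases before the start of *Tbx4* on the opposite strand. It occurred in 12.4% of the promoters. The T-box word AGGTGTGA, found in 1.12% of the promoters, was in none of the 5. None of the words overlapped, and a match describes the letters and not a bound site.

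The pools held 24310035 (WT), 28329701 (XiΔXist), 2393545 (shSCR) and 2504345 (shYY1) allelic reads. At these depths 3 reads correspond to 0.123, 0.106, 1.25 and 1.20 CPM (the reads of a gene divided by all allelic reads of the pool and scaled to 1000000). *Xist* gave 1456 CPM in WT and between 0 and 2.40 CPM in the other pools. *Yy1* gave 99.0 CPM in shSCR and 36.7 CPM in shYY1. Of 11 fibroblast markers, 11 had reads in WT and XiΔXist, 9 in shSCR and 10 in shYY1, with summed levels of 3972 to 9424 CPM. The sums hide markers that moved apart. In WT, XiΔXist, shSCR and shYY1 *Dcn* gave 25.1, 77.4, 0 and 0.399 CPM, and *Col1a1* 21.9, 9.28, 790.9 and 1075 CPM. By the 2-fold call described below, 2 of 10 tested were higher and 3 lower from WT to XiΔXist (4.2% and 8.57% of all genes). From XiΔXist to shSCR 4 of 10 were higher and 2 lower (40.9% and 24.6% of all genes). The sums for markers of cardiomyocytes, skeletal muscle, epithelium, endothelium, blood cells and neural cells lay between 0.0706 and 3.78 CPM in WT and XiΔXist. In the hairpin pools they lay between 0 and 17.1 CPM (cardiomyocyte list, all from *Tnnt2*). Fewer cells of a kind and less RNA per cell cannot be told apart in pooled cells.

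**Figure D1:**
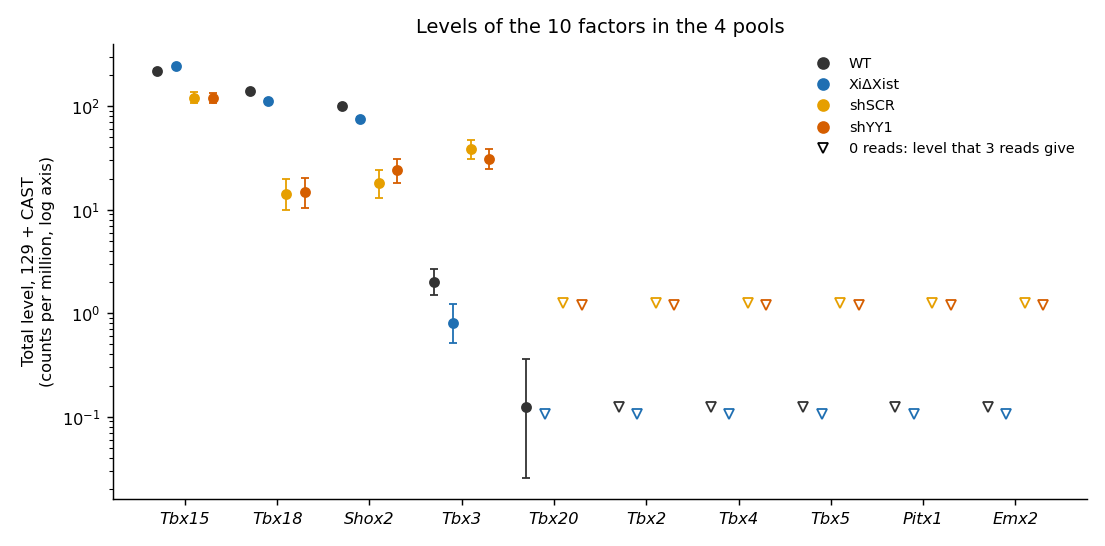
Total level (129 plus CAST reads) of each of the 10 genes in the 4 pools, in CPM on a log axis. Points are pools with exact Poisson 95% intervals, and open triangles stand at the level that 3 reads would give in a pool with 0 reads. Tbx15, Tbx18 and Shox2 each had a higher level in WT and XiΔXist than in the hairpin pools, Tbx3 a lower level, and 5 genes have no read in any pool.

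Of the 10 genes *Tbx15*, *Tbx18*, *Shox2* and *Tbx3* were read in every pool, as the plot of levels shows. The 3 that start or mark a limb, *Tbx5*, *Tbx4* and *Pitx1*, had no read in any pool, and neither had *Tbx2* or *Emx2*. *Tbx20* had 3 reads in WT, all from the 129 allele, and 0 in the other pools. The 36 genes with at least 50 reads within 5 Mb of *Tbx20* in WT were likewise read from the 129 allele, with 98.6 to 100% of their reads. A count of 0 allows up to 0.123 CPM in WT and 0.106 CPM in XiΔXist, and, with fewer reads in all, up to 1.25 and 1.20 CPM in shSCR and shYY1, by a floor of 3 counts. The exact Poisson upper limits were 0.152, 0.130, 1.54 and 1.47 CPM. A level of the size seen for *Tbx3* in XiΔXist lies below these limits in the hairpin pools, so that 0 reads there do not exclude it. Reads enter these counts only where a strain difference lies in an exon, so that a gene without one is listed at 0 at any level of expression. Of 21596 protein-coding genes 32.2% were listed at 0 in all pools, among them *Twist1*, a mesenchymal factor, and 5 of 80 cytosolic ribosomal protein genes. The nearest genes with at least 50 reads in a pool, chosen for having them, show where reads were found around the members at 0. *Tbx2* and *Tbx4* lie close together on chromosome 11 between *Ppm1d* (18.8 CPM in WT) and *Brip1* (81.9 CPM), and *Tbx5* lies on chromosome 5 between *Tbx3* and *Rbm19* (2.76 CPM). *Pitx1* lies between *Txndc15* (107.8 CPM) and *H2afy* (14.5 CPM) on chromosome 13, and *Emx2* between *Slc18a2* (5.35 CPM) and *Rab11fip2* (7.82 CPM) on chromosome 19.

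The limb margin repressor *Tbx3* (chr5:119670669-119684724, GRCm38, plus strand) was low in the untreated cells and higher in the hairpin pools. WT had 49 reads of it and XiΔXist 23, while shSCR had 92 and shYY1 78, although the hairpin pools held far fewer reads in all. The level was 2.02 CPM (95% interval 1.49 to 2.66) in WT and 0.812 CPM (0.515 to 1.22) in XiΔXist. In shSCR it was 38.4 CPM (31.0 to 47.1), and in shYY1 31.1 CPM (24.6 to 38.9). The intervals of the untreated and the hairpin pools do not overlap, and those of shSCR and shYY1 do.

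The upper limb factor *Shox2* (chr3:66971727-66981771, minus strand) showed the opposite order. Its level was 99.8 CPM (95.8 to 103.8) in WT and 75.1 CPM (71.96 to 78.4) in XiΔXist, from 2425 and 2128 reads. It was 17.97 CPM (13.0 to 24.2) in shSCR and 24.0 CPM (18.3 to 30.8) in shYY1, from 43 and 60 reads. Both hairpin pools lay below both untreated pools, and their own intervals overlap. The first part of *Rsrc1*, a splicing factor gene read at 92.3 to 257.5 CPM, overlaps the start of *Shox2* on the other strand, and the use of strand in counting is not given in the sources used here.

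The trunk wall factor *Tbx15* (chr3:99240381-99354259, plus strand) had the highest level of the 10 in each pool. WT stood at 220.0 CPM (214.2 to 226.0), XiΔXist at 245.8 CPM (240.1 to 251.7). The level was 121.2 CPM (107.6 to 135.9) in shSCR and 120.6 CPM (107.4 to 135.0) for shYY1. The intervals of the hairpin pools overlap and lie below those of the untreated pools. An antisense gene within it, *Gm43120*, was read at 10.9 to 23.2 CPM, and its reads cannot be told apart from those of *Tbx15* without strand.

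*Tbx18* (chr9:87702800-87731260, minus strand), which acts in the mesenchyme of the trunk, the ureter and the outer heart, stood at 139.2 CPM (134.6 to 144.0) in WT and 112.0 CPM (108.2 to 116.0) in XiΔXist, from 3384 and 3174 reads. It stood at 14.2 CPM (9.84 to 19.8) in shSCR and 14.8 CPM (10.4 to 20.4) in shYY1, from 34 and 37 reads. The intervals of the hairpin pools overlap each other and lie below those of both untreated pools. The uncharacterised gene *D030062O11Rik*, which overlaps its start on the other strand, had 67 and 88 reads in WT and XiΔXist. A match of 51 bases to *Gmip* was the only stretch of at least 50 bases at 90% identity that *Tbx18* shared with a transcript elsewhere in the genome, and *Tbx3*, *Tbx15* and *Shox2* had none.

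Levels per exon length (RPKM, CPM divided by the exon length in kilobases) place the genes in order, with the limit that strain differences per exon were not measured. In WT *Tbx15* came first with 58.7 RPKM, *Shox2* (30.1, interval 28.9 to 31.4) and *Tbx18* (29.5, 28.5 to 30.5) did not differ beyond counting error, and *Tbx3* came last with 0.304. The order was *Tbx15* (65.6), *Tbx18* (23.7), *Shox2* (22.7) and *Tbx3* (0.123) in XiΔXist, where the intervals of *Tbx18* (22.9 to 24.6) and *Shox2* (21.7 to 23.7) overlap. In shSCR *Tbx15* (32.3 RPKM) was followed by *Tbx3* (5.80, 4.68 to 7.12) and *Shox2* (5.43, 3.93 to 7.31), which overlap, and by *Tbx18* (3.01, 2.09 to 4.21), which overlaps *Shox2*. In shYY1 *Tbx15* (32.2 RPKM) was followed by *Shox2* (7.24, 5.52 to 9.31), *Tbx3* (4.70, 3.72 to 5.87) and *Tbx18* (3.13, 2.20 to 4.32), each overlapping the next. *Tbx3* was thus the lowest of the 4 in the untreated pools and near *Shox2* in the hairpin pools.

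The first comparison asks what differs between WT and XiΔXist cells. A gene was tested from 50 reads upward, summed over the pools compared, and was called when its CPM differed by at least 2-fold with a 95% interval that leaves out 1. Of the 10 genes 4 passed the read minimum, and *Tbx3* was the 1 that was called, with a level 2.48-fold lower in XiΔXist (interval 1.48 to 4.27). The background is 12.8% of 10763 genes called in either direction and 8.57% called lower, so that 1 of 4 rests on a single gene with 72 reads in all. *Tbx15* differed by 1.12-fold upward (1.08 to 1.16), *Tbx18* by 1.24-fold downward (1.18 to 1.30) and *Shox2* by 1.33-fold downward (1.25 to 1.41). The median log2 ratio of the 4 was -0.36, against -0.13 for all genes tested with an SD of 1.09. The call of *Tbx3* was not made with a 4-fold threshold, with a minimum of 200 reads, on the reads of either allele alone (where *Tbx3* was under the read minimum), or on log2(CPM + 1).

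The second comparison sets shSCR against XiΔXist, the same cell type without and with transduction and selection. *Tbx3* was 47.3-fold higher in shSCR (29.7 to 78.4), while *Tbx18* was 7.89-fold lower (5.63 to 11.4), *Shox2* 4.18-fold lower (3.09 to 5.79) and *Tbx15* 2.03-fold lower (1.80 to 2.29). All 4 that passed the read minimum were called, 1 higher and 3 lower, where 65.5% of 10444 genes were called, 40.9% higher and 24.6% lower. A call is thus close to the rule for any gene in this comparison. The median log2 ratio was -1.54 for the 4 and 0.41 for all genes tested, with an SD of 2.64. On that scale *Tbx3* (5.57) lay at percentile 94.4 of all genes tested, *Tbx15* (-1.02) at 25.4, *Shox2* (-2.06) at 11.1 and *Tbx18* (-2.98) at 4.23.

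Over all genes the ratio of shSCR to XiΔXist moved with the GC content of the transcript. The Spearman correlation was 0.67 across 10413 genes, which share both libraries and are not independent replicates, against -0.03 for WT to XiΔXist and -0.14 for shSCR to shYY1. The median log2 ratio was -1.45 in the tenth of genes with the lowest GC content and 4.61 in the tenth with the highest. *Tbx3* had the highest GC content of the 4 with 54.2%, against 49.8% for *Shox2*, 48.2% for *Tbx15* and 46.8% for *Tbx18*. Genes of like GC content had a median log2 ratio of 2.61 for *Tbx3*, 1.06 for *Shox2*, 0.43 for *Tbx15* and 0.29 for *Tbx18*. Relative to these medians the log2 ratios were 2.96, -3.13, -1.45 and -3.27, so that all 4 kept their direction and their call. The part of GC content in the ratios was not tested. TMM scaling shifted all log2 ratios of this comparison by -1.15, which turns the background to 26.0% higher and 45.5% lower, and the centring by GC content turns it to 27.1% and 26.0%. *Tbx15* was not called when mitochondrial genes were left out of the totals (ratio 0.61), and these genes held 22.3% of the reads of XiΔXist and 36.7% of those of shSCR.

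**Figure D2:**
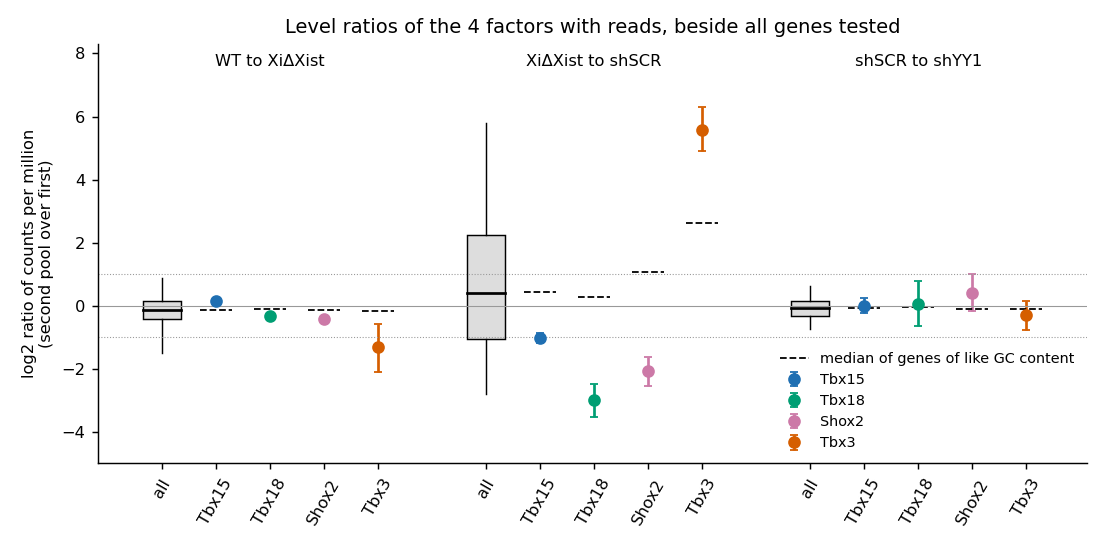
Log2 ratio of CPM in 3 comparisons for Tbx15, Tbx18, Shox2 and Tbx3, with exact 95% counting intervals. Boxes give the median and quartiles of all genes tested with lines to the 5th and 95th percentiles, dashed lines the median of genes of like GC content, and dotted lines 2-fold. Tbx3 lies at 5.57 and Tbx18 at -2.98 in XiΔXist to shSCR, and all 4 genes lie within 2-fold in shSCR to shYY1.

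The third comparison, shSCR against shYY1, asks what differs with the hairpins against YY1. None of the 4 genes past the read minimum was called, where 3.25% of 8245 genes were, 1.41% higher and 1.84% lower (1.76% and 1.41% with TMM scaling, 1.99% and 1.12% when centred by GC content). The ratio of shYY1 to shSCR was 1.00 for *Tbx15* (0.844 to 1.17), 1.04 for *Tbx18* (0.635 to 1.71), 0.810 for *Tbx3* (0.591 to 1.11) and 1.33 for *Shox2* (0.887 to 2.02). The interval for *Tbx18*, in which the YY1 word was found, leaves room for a change of 1.71-fold upward or 1.57-fold downward. *Tbx3* and *Tbx15* had no upstream sequence to search for this word. A 2-fold change was outside the interval for *Tbx15*, *Tbx18* and *Tbx3* but not for *Shox2*. Neighbouring comparisons share a pool, so that a value of XiΔXist or shSCR enters both, and each comparison is given by its own values.

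The reads were then split by allele. *Tbx15* was read from the 129 allele with 5347 of 5349 reads in WT and 6961 of 6964 in XiΔXist. All 290 reads in shSCR and all 302 in shYY1 were of the 129 allele, which allows a CAST share of up to 1.03% and 0.993% by a floor of 3 counts. The Wilson intervals of the 129 share begin at 98.7% in both pools. The genes around it did the same. Of 75 genes with at least 50 reads within 5 Mb in WT, 59 had a 129 share of at least 90%, and their median was 99.8%. Counting protein-coding genes with at least 50 reads in WT and in XiΔXist, 16 in a row around *Tbx15* had a share of at least 90% in both. They ran from *Otud7b*, 3.14 Mb before the start of *Tbx15*, to *Igsf3*, 2.14 Mb after it, with *Anp32e* (49.5% in WT) and *Slc22a15* (79.7%) just outside. *Hsd3b6*, a steroid enzyme gene 0.43 Mb before the start of *Tbx15*, lies within this stretch but had too few reads in WT to be counted. Its 129 share in XiΔXist was 66.3% of 673 reads. The median over chromosome 3 was 97.2% in WT. The next gene with reads, *M6pr-ps*, a processed pseudogene 146291 bases away, was read from the CAST allele alone with 611 reads in WT, although reads of a pseudogene and its source gene may be mixed.

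*Shox2*, on the same chromosome, was read from both alleles. Its 129 share was 48.0% (Wilson 95% interval 46.1 to 50.03) in WT and 52.0% (49.8 to 54.1) in XiΔXist. In shSCR it was 39.5% (26.4 to 54.4), and in shYY1 31.7% (21.3 to 44.2). The median of its 30 neighbours in WT was 52.1% (quartiles 45.4 to 56.4%), and 12 of them had a lower share than *Shox2*. In shYY1 the median was 53.6% over 16 genes, 1 of which had a lower share than *Shox2*. The share of *Shox2* was below its neighbours' median in WT and shYY1 beyond counting error, and not in XiΔXist or shSCR. In WT it nonetheless lay within the quartiles of its neighbours. The overlapping *Rsrc1*, which was left out of the neighbours and whose reads may be mixed in, had a 129 share of 37.8% in WT and 47.4% in shYY1. By level, the CAST allele gave 51.8 CPM in WT and 36.1 CPM in XiΔXist, and the 129 allele 47.9 and 39.0 CPM.

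*Tbx18* was the gene with the largest shift in allelic balance between WT and XiΔXist among the 4. Its 129 share was 23.8% (22.4 to 25.3) in WT and 46.8% (45.1 to 48.5) in XiΔXist. The hairpin pools had 41.2% (26.4 to 57.8, shSCR) and 67.6% (51.5 to 80.4, shYY1). WT thus lay below the other 3 pools without overlap. The level of the CAST allele was 106.0 CPM (102.0 to 110.2) in WT and 59.6 CPM (56.8 to 62.5) in XiΔXist, while the 129 allele gave 33.2 CPM (30.9 to 35.5) and 52.4 CPM (49.8 to 55.2). The total hid this, since the 129 allele was 1.58-fold higher (1.45 to 1.72) and the CAST allele 1.78-fold lower (1.67 to 1.89). Of the neighbours of *Tbx18* measured in both pools, 31 of 34 had a higher share in XiΔXist. The median shift of these 34 genes was 13.3 percentage points. Over all neighbours measured in a pool the median share was 23.9% in WT (35 genes) and 43.5% in XiΔXist (36 genes). The median over chromosome 9 also rose, from 44.8% in WT (550 genes) to 62.4% in XiΔXist (548 genes), so that the direction was not particular to *Tbx18* or its neighbours. The shift of *Tbx18* was 23.0 points, larger than that of 31 of the 34. In the hairpin pools the median of the neighbours was 44.4% and 43.8%, near that of XiΔXist and not that of WT. The share of *Tbx18* itself was above its neighbours' median in XiΔXist and shYY1 beyond counting error, and not in WT or shSCR. In XiΔXist it nonetheless lay within the quartiles of its neighbours (29.4 to 50.6%). All 20 neighbours in shYY1 had a lower share than *Tbx18*, which had 37 reads there.

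**Figure D3:**
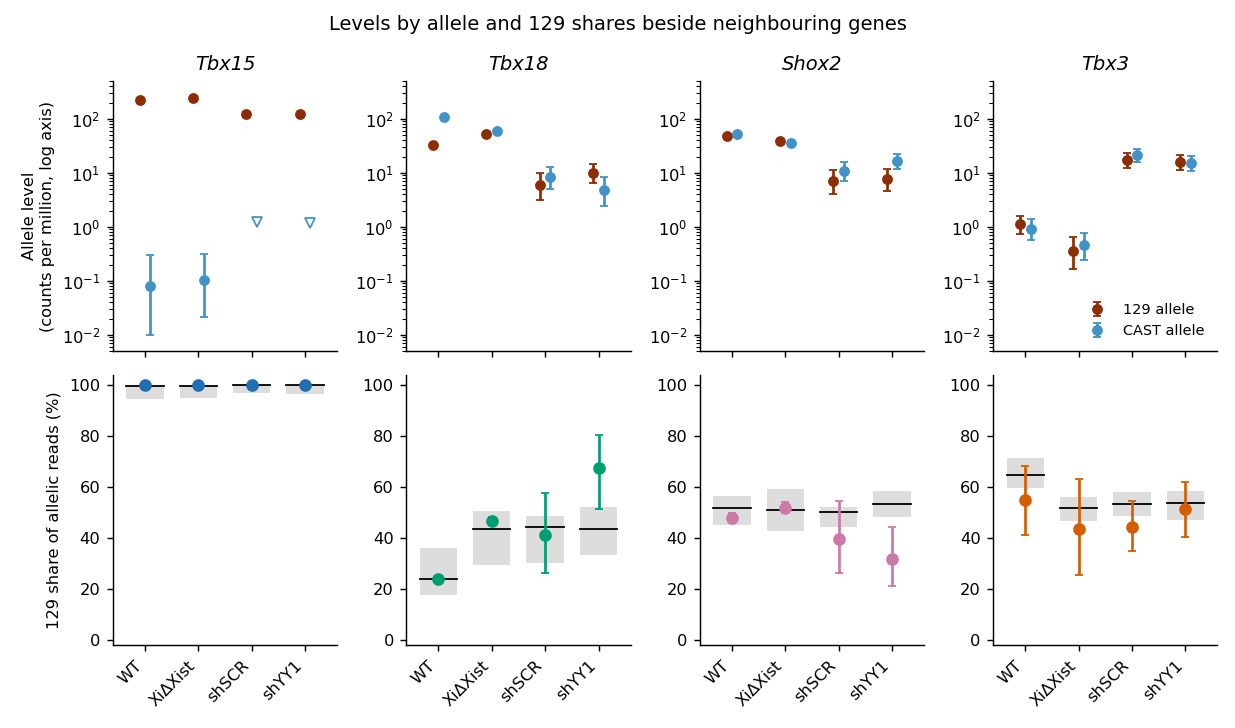
Upper row, level of the 129 and the CAST allele in CPM on a log axis with exact Poisson 95% intervals, where open triangles mark the level of 3 reads for an allele with 0 reads. Lower row, 129 share in percent with Wilson 95% intervals beside the median (line) and quartiles (grey) of genes within 5 Mb. The 129 share of Tbx18 was 23.8% in WT and 46.8% in XiΔXist, while Tbx15 was near 100% in each pool.

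*Tbx3* was read from both alleles, with 27 of 49 reads from the 129 allele in WT (55.1%, 41.3 to 68.1) and 10 of 23 in XiΔXist (43.5%, 25.6 to 63.2). In shSCR it was 41 of 92 (44.6%, 34.8 to 54.7), and in shYY1 40 of 78 (51.3%, 40.4 to 62.1). All 4 intervals overlap and each holds the median of its neighbours. That median was 65.0% in WT and 52.0% in XiΔXist, a median shift of -11.9 points over 79 genes, all of which moved down. The median over chromosome 5 fell as well, from 66.5% in WT (701 genes) to 53.2% in XiΔXist (679 genes). The difference of *Tbx3* was -11.6 points, but with 23 reads in XiΔXist it was within counting error. Both alleles gave more reads in the hairpin pools. In shSCR against XiΔXist the 129 allele was 48.5-fold higher (23.9 to 108.6) and the CAST allele 46.4-fold higher (24.9 to 93.1).

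**Figure D4:**
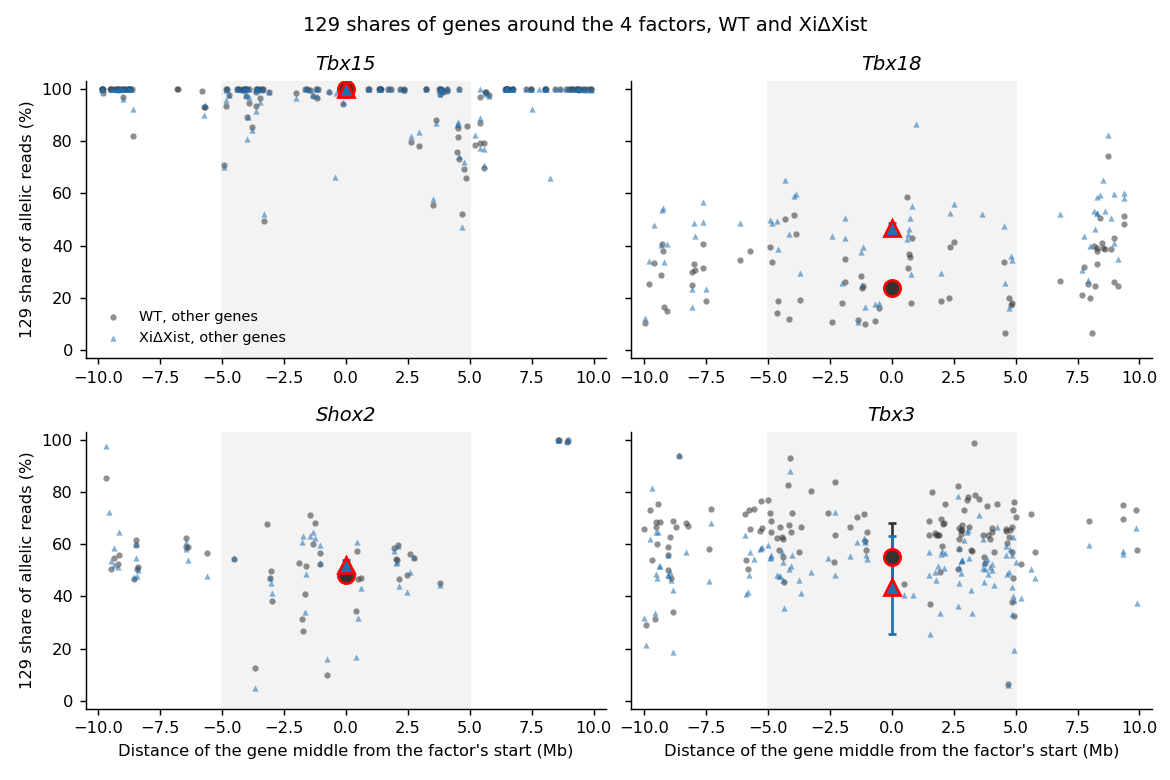
The 129 share of genes with at least 50 reads plotted against their distance in Mb from the start of each of the 4 factors, for WT (circles) and XiΔXist (triangles). Red outlines with Wilson 95% intervals mark the factor itself and the shaded band the 5 Mb used for the medians. Genes around Tbx15 lie mostly near 100%, and around Tbx18 and Tbx3 the 2 pools are offset in opposite directions, by 13.3 and -11.9 points at the median.

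The 129 share was tested for genes with 10 or more reads in each of the pools, by Fisher's exact test (two-sided), and the p-values were adjusted over all of these genes by the method of Benjamini and Hochberg. Such a test sets libraries against each other and says nothing of the conditions as such. From WT to XiΔXist 2 of 4 genes were called, both with a higher 129 share, where 19.4% of 11909 genes were called, 7.24% higher and 12.1% lower. These were *Tbx18* (23.0 points, adjusted Fisher's exact p = 2.12e-83) and *Shox2* (3.93 points, adjusted p = 0.0432). *Tbx3* (adjusted p = 0.957) and *Tbx15* (adjusted p = 1) were not called. From XiΔXist to shSCR none of the 4 was called, where 21.4% of 9548 genes were, with the lowest unadjusted p for *Shox2* (exact p = 0.123, -12.4 points). From shSCR to shYY1 none was called, where 1.19% of 10070 genes were, 0.636% higher and 0.556% lower. There *Tbx18* differed by 26.4 points with an unadjusted exact p of 0.0330 and an adjusted p of 0.409, at 34 and 37 reads. Scaling the CAST reads so that the median autosomal share was equal to that of the 129 reads turned the background from WT to XiΔXist to 15.8% higher and 9.43% lower, and left both calls in place.

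The wider limb programme was followed in a list of 24 limb and lateral plate genes, of which 8 had no read in any pool. From WT to XiΔXist 9 could be tested, 2 were higher and none lower, with a median log2 ratio of 0.22, against 4.2% and 8.57% of all genes and a median of -0.13. The 2 were *Grem1*, a BMP antagonist of the limb bud, with 13.4 CPM in WT and 76.9 in XiΔXist (5.74-fold, 5.11 to 6.47), and *Twist2*, a mesenchymal factor, with 38.1 and 114.6 CPM (3.01-fold, 2.79 to 3.24). From XiΔXist to shSCR 8 could be tested, 2 were higher and 3 lower, with a median of -0.18 against 0.41, where 40.9% of all genes were higher and 24.6% lower, so that 5 of 8 called is near the background of 65.5%. *Prrx1*, an early marker of limb mesenchyme, had the highest level of the list at 2132, 2490, 432 and 549 CPM in WT, XiΔXist, shSCR and shYY1, and was 5.76-fold lower in shSCR than in XiΔXist (5.42 to 6.13). *Twist2* was 3.12-fold lower (2.52 to 3.90) and *Meis1*, a cofactor of proximal limb and trunk, 3.90-fold higher (2.79 to 5.36). None of 8 was called from shSCR to shYY1. *Fgf10*, the growth factor that *Tbx5* switches on in the limb, was read at 35.4, 20.2, 22.6 and 19.2 CPM in the 4 pools. *Fgf8*, *Hand2*, *Msx2*, *Lmx1b* and *Sall4* had no read in any pool, under the same limit as the members at 0.

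Hox genes of limb level, which record position along the trunk and limb, had higher summed levels in the hairpin pools than in the untreated pools. Any read was found for 7 of 16 in WT and 2 in XiΔXist, against 8 in shSCR and 9 in shYY1, and their summed levels were 10.3, 0.706, 83.6 and 81.5 CPM. *Hoxc10*, a gene of lumbar and hindlimb level, had 128 reads in WT and 0 in XiΔXist, at least 49.7-fold lower against a floor of 3 counts (39.9-fold at the lower end of the counting interval), and stood at 11.3 and 13.6 CPM in shSCR and shYY1. *Hoxd9* was 2.20-fold lower in XiΔXist than in WT (1.21 to 4.14), from 34 and 18 reads. Relative to genes of like GC content its log2 ratio was -0.92, which is under 2-fold. These were the 2 Hox genes tested from WT to XiΔXist, where 8.57% of all genes were called lower. *Hoxa9* had 0 reads in XiΔXist and 64 in shSCR, at least 252-fold higher against the same floor (199.5-fold at the lower end), and its log2 ratio relative to genes of like GC content rests on that floor. Only 1 or 2 of the 16 reached the read minimum in a comparison, so that no median is given. The hairpin pools are labelled as XiΔXist cells, and for the Hox genes, as for *Tbx3*, their levels were unlike those of the XiΔXist pool. From XiΔXist to shSCR 65.5% of all genes were called, 40.9% higher and 24.6% lower, so that being unlike was not particular to these genes. The ratios of that comparison also moved with GC content. *Hoxd9* had 18 reads in XiΔXist (0.635 CPM) and 0 in shSCR, where a count of 0 allows up to 1.25 CPM.

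**Figure D5:**
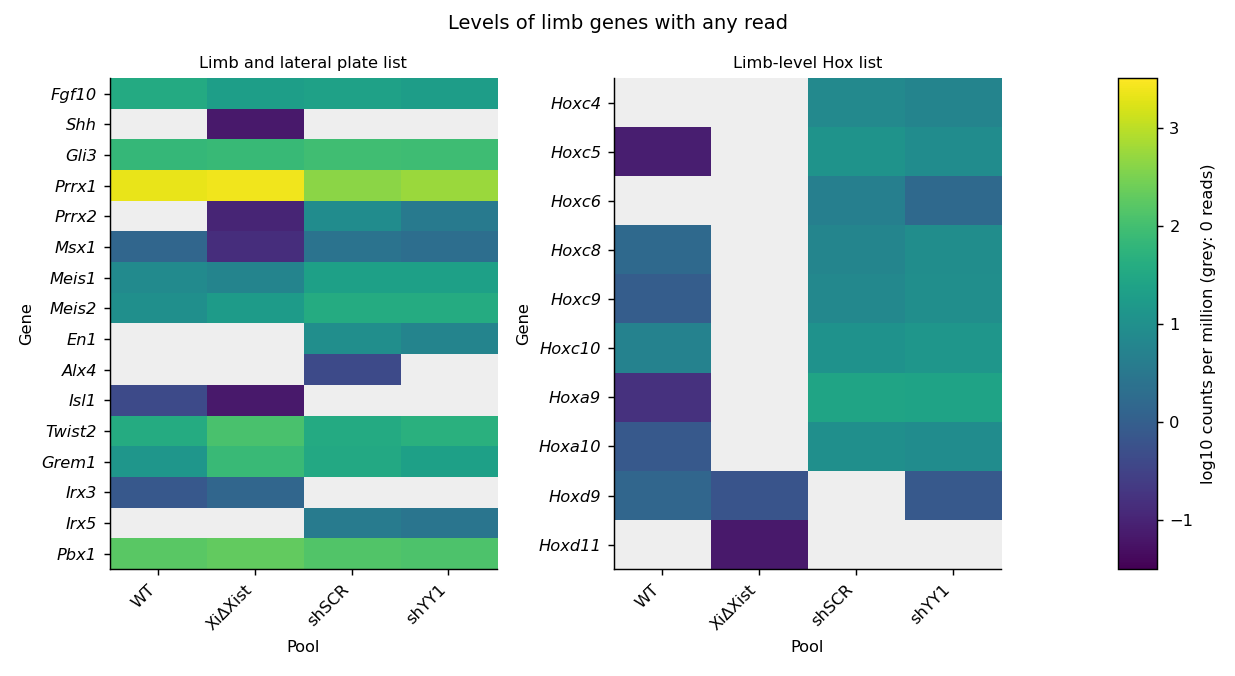
Log10 CPM of limb and lateral plate genes (left) and limb-level Hox genes (right) with any read, in the 4 pools, where grey cells hold 0 reads. In XiΔXist 2 of the 16 Hox genes have reads, against 8 in shSCR, and Prrx1 is highest of the limb list in each pool.

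Of 10 other T-box genes 4 had no read in any pool, and *Mga*, a broadly expressed gene that pairs a T-box with a MYC-type domain, was read at 108.2 to 210.1 CPM. *Eomes*, a factor of early mesoderm, was 2.09-fold lower in XiΔXist than in WT (1.39 to 3.18), from 70 and 39 reads. It was 1 of 2 tested there, where 8.57% of all genes were called lower. Relative to genes of like GC content its log2 ratio was -0.89, which is under 2-fold. No other gene of this list was called by level in any comparison. By 129 share *Mga* was the 1 gene tested from XiΔXist to shSCR. It was called higher there, where 11.1% of 9548 genes were. Calls by level were also made for 7 genes reported as targets of the 10 factors. None of 3 tested was called from WT to XiΔXist. From XiΔXist to shSCR 2 of 4 were higher (40.9% of all genes were). None of 4 was called from shSCR to shYY1 (3.25% of all genes were). *Cdkn2a*, a cell cycle brake that *Tbx2* and *Tbx3* repress, stood at 1.23, 0.565, 100.3 and 89.4 CPM in the 4 pools. *Cdkn1a*, another such brake, stood at 6.42, 11.1, 66.8 and 97.8 CPM. Both were higher in shSCR than in XiΔXist, by 177.5-fold (107.1 to 315.6) and 6.01-fold (4.94 to 7.29), while relative to genes of like GC content their log2 ratios were 2.24 and -0.02. *Gja1*, a gap junction gene, was read at 125.0 to 261.7 CPM and was not called by level.

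For each of the 4 genes the protein-coding genes with the nearest profile were looked up among 9027, by the Euclidean distance of log2(CPM + 1) over the 4 pools after centring. They were *Lgals9* (distance 0.07) and *Arhgap23* (0.11) for *Tbx3*, *Pikfyve* and *Nsrp1* (both 0.04) for *Tbx15*, *Serbp1* (0.18) and *Atad1* (0.19) for *Tbx18*, and *Gm5141* (0.08) and *Abca5* (0.11) for *Shox2*. With 4 pools a near profile is a description.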

How the data were processed

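Allelic RNA-seq of 8 MEF samples was analysed from 8 deposited tables, 1 per group and allele. The values are counts, which the authors made by pooling the replicates of a group, aligning to an N-masked mm10 genome with TopHat, removing reads of low mapping quality, splitting reads by allele with SNPsplit and counting over exons with featureCounts (version 1.6.3 in the submitters' processing notes). The annotation release is not given in the sources used here. Libraries were prepared with the KAPA RNA HyperPrep kit.

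Symbols, positions, exon lengths and GC content came from GENCODE vM21 (GRCm38, the assembly mm10), which held 45229 of 46078 gene IDs. The other 849 held under 0.1% of the reads of a pool and stayed in the totals. CPM is the reads of both alleles of a gene scaled to a total of 1000000 listed reads. Levels carry exact Poisson intervals, ratios exact conditional intervals and shares Wilson intervals, all at 95% and for counting error only, since PCR copies are not independent molecules. A ratio to 0 reads uses a floor of 3 counts per pool. Level calls needed 50 reads in both pools together and a 2-fold ratio, share calls 10 reads in each pool and an adjusted p under 0.05. With 1 pool per group no count model was fitted. Neighbours had at least 50 reads within 5 Mb and were not pseudogenes. GC content was compared in 20 bins. The calls were tested on simulated data. Near copies were searched with blastn 2.17.0. Python 3.11.15, numpy 2.4.6, pandas 2.3.3, scipy 1.17.1, matplotlib 3.10.9, R 4.3.3 and edgeR 4.0.16 (TMM factors alone) were used.

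The members and gene lists were chosen with earlier results of these data known. Besides the members, the text names from each list the genes past the 2-fold call with the largest ratio, up to 3 per comparison, as well as overlapping and flanking genes, nearest profiles, and *Xist* and *Yy1*. Other genes of the lists (*Fgf10*, *Fgf8*, *Hand2*, *Msx2*, *Lmx1b*, *Sall4*, *Mga*, *Gja1*, *Tnnt2*, *Dcn*, *Col1a1*) and *Twist1* were picked after their values were seen. A gene that the naming rule selected is not reported here. Alternatives were other scalings, thresholds, read minimums, alleles, pseudocounts and windows. The GC-centred ratio was added after seeing the data.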

Additional observations from a re-analysis of the deposited data

How the results depend on the processing

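No paired analysis was possible because the deposited columns pool the replicates of each group, and for the same reason no replicate could be left out. Of 50 recomputed values 40 kept their side of the limits set here and 10 moved. The number of members called from WT to XiΔXist by level was 1, and it was 0 with a 4-fold threshold, with at least 200 reads, on 129 reads or CAST reads alone, and on log2(CPM + 1). By 129 share, 0 members were called from XiΔXist to shSCR, against 1 with a change of 10 percentage points and no test, 2 with the d-score change of 0.03 that the study uses (the d-score is the 129 share minus 0.5) and 1 with the CAST reads scaled. From WT to XiΔXist the 10 point threshold also gave 2 members, *Tbx18* and *Tbx3* in place of *Shox2*. From shSCR to shYY1 the 0 became 1 and 3 with the 2 untested thresholds. The cause was not tested, other than that an untested threshold ignores counting error. The number of members and pools with a share apart from the neighbours' median was 6 of 16, and 7 and 4 with windows of 2 and 10 Mb. Depth limits the hairpin pools, where *Tbx18*, *Shox2* and *Tbx3* had 34 to 92 reads each.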

Other observations

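Factors of other sites were also read. Of 13 head mesenchyme genes 5 had no read in any pool. *Lhx6*, a factor of jaw mesenchyme, was 2.53-fold higher in XiΔXist than in WT (1.92 to 3.36), where 4.2% of all genes were called higher. From XiΔXist to shSCR, where 40.9% of all genes were called higher, *Lhx6* was 2.99-fold higher (2.16 to 4.07). Relative to genes of like GC content, however, its log2 ratio was -2.62, the opposite direction. *Dlx2*, a jaw and forebrain factor, had 0 reads in XiΔXist and 57 in shSCR. Its log2 ratio relative to genes of like GC content was 2.58 there and rests on the floor of 3 counts. It was 2.13-fold lower in shYY1 than in shSCR (1.33 to 3.48), where 1.84% of all genes were called lower. Relative to genes of like GC content that log2 ratio was -0.91, which is under 2-fold.

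Of 8 urogenital genes 4 had no read in any pool. *Lhx9*, a factor of the gonad and limb bud, stood at 5.31 CPM in WT and 35.3 CPM in XiΔXist, 6.65-fold higher (5.53 to 8.05). In that comparison 4.2% of all genes were called higher. *Osr1*, a factor of intermediate and lateral plate mesoderm, stood at 1.16 CPM in XiΔXist and 56.4 CPM in shSCR, 48.4-fold higher (32.9 to 73.2). Its log2 ratio relative to genes of like GC content was 1.40, and 40.9% of all genes were called higher from XiΔXist to shSCR.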
